A study of Mus musculus with 2 samples.

Results

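The cells described here are the Mpo and Ctsg myeloid progenitors of young mouse long bone, immature blood cells that make the enzymes later stored in neutrophil and monocyte granules. A cell belonged to them if at least 2 of the 4 genes Mpo, Ctsg, Elane and Prtn3 had 2 or more unique molecular identifiers (UMIs, one per captured RNA molecule), if fewer than 2 of the basophil genes Mcpt8, Prss34, Ms4a2, Fcer1a and Cd200r3 had a UMI, and if no UMI of Cdh5, Pdgfra or Pdgfrb, which mark endothelial and stromal cells, was seen. This rule took 129 of 55783 kept cells, 50 in the Control library and 79 in the Dach1OE library. Both libraries were made from femur and tibia of C57BL/6 mice on postnatal day 30, and both groups of mice had received tamoxifen. Dach1OE mice carried Apj CreERT2 with Dach1OE +/f, so that tamoxifen switched on a Dach1 transgene in endothelial cells that express Aplnr (Apj). Control mice had the genotype Dach1OE +/f with no Cre. There was 1 library per group, each pooled from 2 mice of both sexes, so there is no replicate library, no test was made, and every interval below covers counting error only.

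Granulocyte and monocyte progenitors arise in bone marrow from stem cells that lose the potential for other lineages step by step. At the promyelocyte stage they fill azurophil granules with myeloperoxidase (Mpo) and the serine proteases cathepsin G (Ctsg), neutrophil elastase (Elane) and proteinase 3 (Prtn3), and the factors PU.1, C/EBP alpha and MYB are known to drive these genes. Eosinophil, basophil and mast cell progenitors pass through a related stage, so granule genes alone do not name 1 lineage. The preparation was meant to lack such cells, because lineage-marked cells and then cells with CD45 or CD117 were removed on beads, and the study removed cells with Ptprc (CD45) RNA before its own analysis.

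The 4 rule genes are shown by the 250 bases before their RefSeq starts (GRCm38.p6), on the strand of the gene, since they were the genes the cells were selected on and share these factors as known regulators. Mpo lies on chromosome 11 at 87793581 to 87804413 and its sequence is chr11:87793534-87793783, whereas Ctsg lies on chromosome 14 at 56099881 to 56102574 on the minus strand, with chr14:56102575-56102824. Prtn3 (79874476 to 79883174) and Elane (79886247 to 79888215) are neighbours on chromosome 10, 3072 bases apart, and their sequences are chr10:79879417-79879666, which falls inside the longer GENCODE model of Prtn3, and chr10:79886062-79886311. The RefSeq starts of Mpo and Elane also lie downstream of the gene starts given here from GENCODE, so 203 of the 250 bases shown for Mpo and 65 of those for Elane are within the GENCODE gene. Capitals mark exact matches on either strand to AGGAAG (a PU.1 core) or AACTG (a MYB core), and no matches of the 2 motifs overlapped.
Mpo: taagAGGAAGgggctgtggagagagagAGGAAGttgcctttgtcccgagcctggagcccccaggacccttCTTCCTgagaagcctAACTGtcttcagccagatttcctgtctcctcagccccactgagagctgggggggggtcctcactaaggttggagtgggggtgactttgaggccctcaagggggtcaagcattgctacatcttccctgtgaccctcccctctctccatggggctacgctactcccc
Ctsg: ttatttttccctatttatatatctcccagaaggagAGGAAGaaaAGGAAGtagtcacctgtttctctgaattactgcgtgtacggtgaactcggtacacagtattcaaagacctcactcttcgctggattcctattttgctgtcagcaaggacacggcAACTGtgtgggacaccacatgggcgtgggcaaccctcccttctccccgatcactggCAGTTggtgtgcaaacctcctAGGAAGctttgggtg
Elane: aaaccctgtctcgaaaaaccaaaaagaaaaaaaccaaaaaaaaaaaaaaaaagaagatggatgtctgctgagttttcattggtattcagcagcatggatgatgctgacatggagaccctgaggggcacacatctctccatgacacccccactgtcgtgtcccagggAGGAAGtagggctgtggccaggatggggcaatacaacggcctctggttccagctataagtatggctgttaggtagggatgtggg
Prtn3: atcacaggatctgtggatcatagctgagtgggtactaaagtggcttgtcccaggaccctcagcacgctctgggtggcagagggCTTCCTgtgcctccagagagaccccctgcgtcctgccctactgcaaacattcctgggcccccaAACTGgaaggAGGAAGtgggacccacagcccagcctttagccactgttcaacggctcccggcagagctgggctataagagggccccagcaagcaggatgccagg
AGGAAG was found 3 times in the window of Mpo, 3 times in that of Ctsg, 1 time in that of Elane and 2 times in that of Prtn3, and it was held by 29.5% of all 32851 RefSeq windows of this length. AACTG matched 1, 2, 0 and 1 times in the same order and was held by 39.1% of all windows. Neither TTGCNNAA (C/EBP), held by 9.56% of all windows, nor GATAA (GATA factors), held by 22.6%, was in any of the 4 windows. A match is only these letters, not a bound site, and Prg2, which is central below, had no entry in the promoter table.

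The progenitors were rare in both libraries. They made up 0.189% of 26466 kept Control cells (exact 95% binomial interval 0.140 to 0.249) and 0.269% of 29317 kept Dach1OE cells (0.213 to 0.336), a difference of 0.0805 percentage points (0.000344 to 0.161) whose interval nearly touches 0. With 5 or more UMIs asked of each rule gene the difference was 0.0376 points (-0.0300 to 0.105). Among cells with a Ptprc UMI the shares were 3.44% (25 of 726) and 4.19% (35 of 836), and the interval of that difference, -1.23 to 2.67 points, includes 0. Where the UMIs told the sex of the cell, the share was 0.310% and 0.362% of cells with Xist, and 0.153% and 0.365% of cells with Y-linked UMIs, a difference of 0.0519 points (-0.114 to 0.222) in the former and 0.212 points (0.0334 to 0.392, 9 Control cells) in the latter. Whether these differ from each other was not tested. Cells with Xist were 77.5% of Control and 55.7% of Dach1OE progenitors of known sex, and values by sex are given beside the results on the cell cycle, eosinophil genes and Dach1.

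Most of the cells that pass the first condition carry basophil genes: 951 Control and 1017 Dach1OE cells had 2 or more rule genes, and 885 and 909 of them had a UMI of 2 or more of the 5 basophil genes. A Cdh5, Pdgfra or Pdgfrb UMI was in 200 and 226 of the 951 and 1017 cells. Of these, 184 and 197 also had 2 or more basophil genes, and the rest were left out by the third condition alone. Cells just inside the threshold, with exactly 2 rule genes, numbered 12 and 20 and had a median of 8 and 9 Mpo UMIs. Cells just outside it, with 1 rule gene, numbered 28 and 40 and had a median of 3 Mpo UMIs in either library. Exactly 1 of the basophil genes had a UMI in 23 of the 50 Control and 51 of the 79 Dach1OE progenitors.

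Depth differed between the libraries, with a median of 7767.5 UMIs per progenitor in Control (1155 to 18820) and 5999 in Dach1OE (2529 to 11826), and the summed UMIs were 391162 and 498593. Shares called thinned are the share of cells with a UMI to be had if each cell held 2000 UMIs, which leaves out 3 Control cells. Counts of cells with a UMI, such as 43 of 50 and 65 of 79, are not thinned and carry this difference in depth. Cells with a Cdh5 UMI, which should lack granule genes, had medians of 3264 and 3226 UMIs and serve as the level of free RNA for those genes. The tables shared 1049 cell barcodes, of which 4 Control and 3 Dach1OE barcodes belonged to progenitors.

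The 4 rule genes, given here as a description since the cells were selected on them, were at much the same level in both libraries. Mpo had a median of 32.5 UMIs per cell in Control (0 to 158) and 27 in Dach1OE (2 to 154), and summed over cells it stood at 5139 and 5335 counts per 1000000 UMIs (CPM). Prtn3 was at 2268 and 1811 CPM and Ctsg at 1327 and 1093 CPM, both somewhat lower in Dach1OE (log2 ratio -0.32, -0.46 to -0.19, and -0.28, -0.46 to -0.10). Elane was the most uneven of them: it had a UMI in 32 of 50 and 50 of 79 cells, up to 90 and 72 UMIs in 1 cell, and summed to 1319 and 1388 CPM. At 2000 UMIs per cell, Mpo was seen in 96.2% and 97.4% of progenitors against 1.84% and 2.21% of cells with a Cdh5 UMI, and Elane in 44.0% and 48.9% against 0.188% and 0.253%. Mpo and Ctsg were also high in basophil-like cells, at 2212 and 1921 CPM and at 1447 and 1285 CPM, whereas Elane (46.1 and 48.6 CPM) and Prtn3 (127 and 102 CPM) were low there.

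Beyond the rule, the label was checked on other genes of the same stage. Cd34, a surface protein of stem and progenitor cells, had a UMI in 43 of 50 and 65 of 79 progenitors and stood at 516 and 568 CPM, against 93.3 and 79.7 CPM in basophil-like cells. Myb, the factor of immature blood cells, was at 706 and 818 CPM against 348 and 324 CPM. Most genes of later neutrophil stages had few or no UMIs. Of the 9 specific granule genes, Ltf, Camp, Ngp, Chil3 and Cd177 had no UMI in any of the 129 cells, and among the 9 genes of mature neutrophils Retnlg and S100a9 had none and S100a8 had 2 and 1 UMIs. The specific granule list summed to 10.2 and 48.1 CPM (4 and 24 UMIs, of which Cybb had 1 and 22), and the mature neutrophil list to 130 and 112 CPM, mostly Csf3r and Cxcr2. Csf3r, the G-CSF receptor, had a UMI in 14 of 50 and 15 of 79 progenitors, against 0 of 976 and 2 of 1109 basophil-like cells. A sum of 0 UMIs allows up to 3 counts per library. The name progenitor is used here for the genes of the rule with Cd34 and Myb, and 27 of the 129 cells, described below, also held many UMIs of eosinophil granule genes. In these 27 cells Cd34 had a median of 1 UMI in either library, against 4 and 3 UMIs over all progenitors. Myb went the other way there, with a median of 7 and 7.5 UMIs against 5 over all progenitors of either library. Unlike Cd34 and Myb, Cebpa, given below, was lower in the progenitors than in basophil-like cells. Neutrophil fate itself was hard to read from the list made for it. Its late granule genes Ltf, Camp and Ngp had no UMI in any progenitor, and 1 of its 7 genes had enough UMIs for a ratio. A low share of cells with this list therefore says little about neutrophil fate. After thinning, 2 or more of the 7 neutrophil-side genes (Gfi1, Cebpe and late granule genes) were seen in 1.30% and 2.01% of progenitors, and not thinned in 10% and 8.86%. In the 27 cells with many eosinophil granule UMIs, Cebpe had 17 and 50 UMIs, against 7 and 8 in all other progenitors. The share is therefore not one of neutrophil fate alone.

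**Figure D1:**
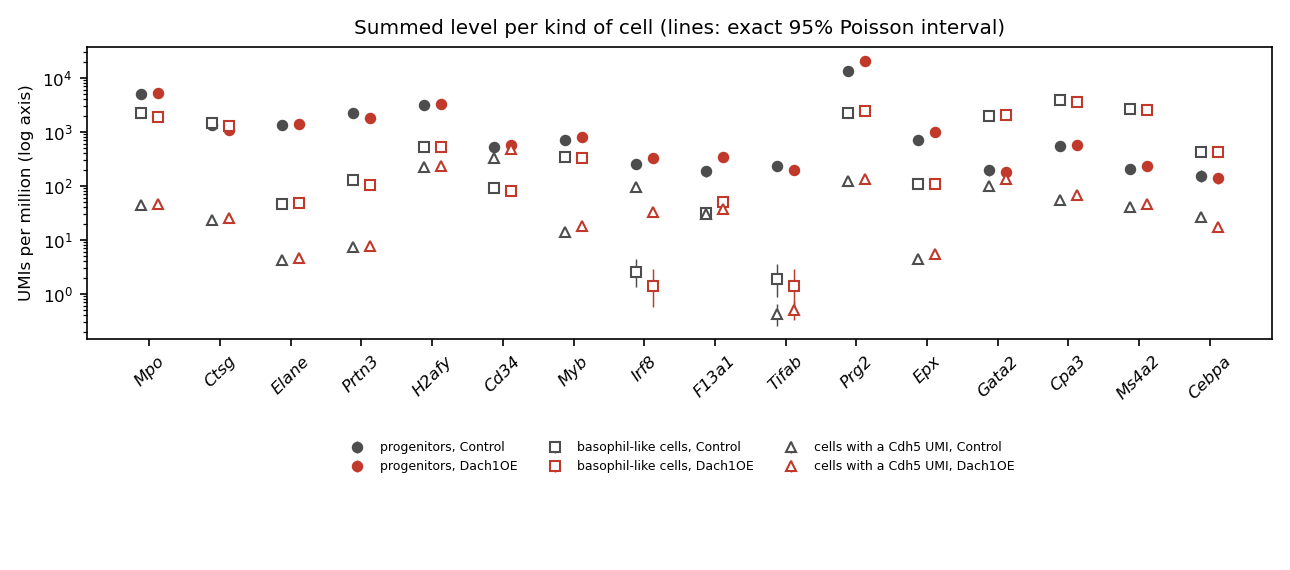
Summed level of 16 genes in CPM (log axis) in progenitors (filled circles), basophil-like cells (squares) and cells with a Cdh5 UMI (triangles), Control in grey and Dach1OE in red, with exact 95% Poisson intervals where they exceed the symbol. Irf8, Tifab and H2afy stand far above the level in basophil-like cells, and Gata2, Cpa3 and Cebpa below it. Mpo, Ctsg, Elane, Prtn3 and Ms4a2 were used by the rule, so their places are a description. Levels are comparable between kinds of cell for 1 gene, not between genes.

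The comparison cells were 500 Control and 599 Dach1OE other cells with a Ptprc UMI and no Cdh5, Pdgfra or Pdgfrb UMI. Most of them carry basophil genes. Only genes with at least 50 UMIs in the progenitors of each library were ranked, so the list is a description. Outside the rule, 15 genes stood highest in the progenitors of both libraries: Tifab, Irf8, Ly6c2, Ear6, F13a1, Slco3a1, H2afy, Cd34, Prg3, Cd93, Ear1, Prg2, Epx, Gstm1 and Emb. Ear1 had a UMI in only 4 and 8 progenitors and Ear6 in 5 and 11. Cells with Prg2 and Epx were found outside the progenitors too: basophil-like cells held 10540 and 12050 Prg2 UMIs, against 5355 and 10393 in progenitors, and 23 and 27 of them had an Epx UMI, against 7 and 18 progenitors. The most evenly spread of the 15 genes was H2afy, which encodes the histone variant macroH2A1. It had a UMI in 50 of 50 Control and 78 of 79 Dach1OE cells and stood at 3201 and 3223 CPM, against 501 and 509 CPM in the other Ptprc-positive cells, a log2 ratio of 2.68 (2.57 to 2.78) and 2.66 (2.56 to 2.76). Tifab, an inhibitor of TRAF6 signalling whose gene lies 37342 bases from H2afy on chromosome 13, was at 235 and 199 CPM against 2.26 and 3.65 CPM. It was far more uneven, with a UMI in 20 of 50 and 27 of 79 cells. Irf8, the factor of monocyte and dendritic fate, was at 251 and 323 CPM against 4.19 and 14.6 CPM and was seen in 19 and 31 cells. Gata2, a factor of mast cells and basophils, was lower, at 194 and 179 CPM against 1932 and 2049 CPM in basophil-like cells. Cebpa, which encodes the C/EBP alpha known to drive the granule genes, was also lower in the progenitors, at 153 and 138 CPM against 428 and 420 CPM.

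Cell by cell, the progenitors were sorted into sets by 3 conditions. These sets were defined after the values had been seen, so they are described and not tested. The first had 10 or more UMIs of Prg2, the eosinophil major basic protein, and is called Prg2-high. The others, taken among the remaining cells, had 2 or more genes at 2 or more UMIs of a basophil and mast cell list (Mcpt8, Prss34, Ms4a2, Fcer1a, Cd200r3, Cpa3, Gata2, Hdc) or of a monocyte-side list (Irf8, Csf1r, Ly86, F13a1, Ccr2, Klf4). Over both libraries 27 cells were Prg2-high, 37 had basophil genes only, 33 had monocyte-side genes only and 32 had none of these. Although 60 cells met the basophil condition and 33 the monocyte-side condition, 0 of 129 met both. Some cells lay next to the cut. Exactly 1 basophil gene was at 2 or more UMIs in 13 and 12 progenitors, and exactly 1 monocyte-side gene in 6 and 8. In 1 Dach1OE cell with basophil genes (Cpa3 7, Gata2 2 and Hdc 4 UMIs) F13a1 had 10 UMIs. The overlap to be had by chance was not computed. None of the 27 Prg2-high cells met the monocyte-side condition, but 23 of them met the basophil one (4 of 7 Control and 19 of 20 Dach1OE cells), so the Prg2-high and basophil sets are kept apart by the order of sorting. The rule bears on this, since it leaves out cells with 2 or more of the first 5 basophil genes, so that the basophil set rests mainly on Cpa3, Gata2 and Hdc.

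**Figure D2:**
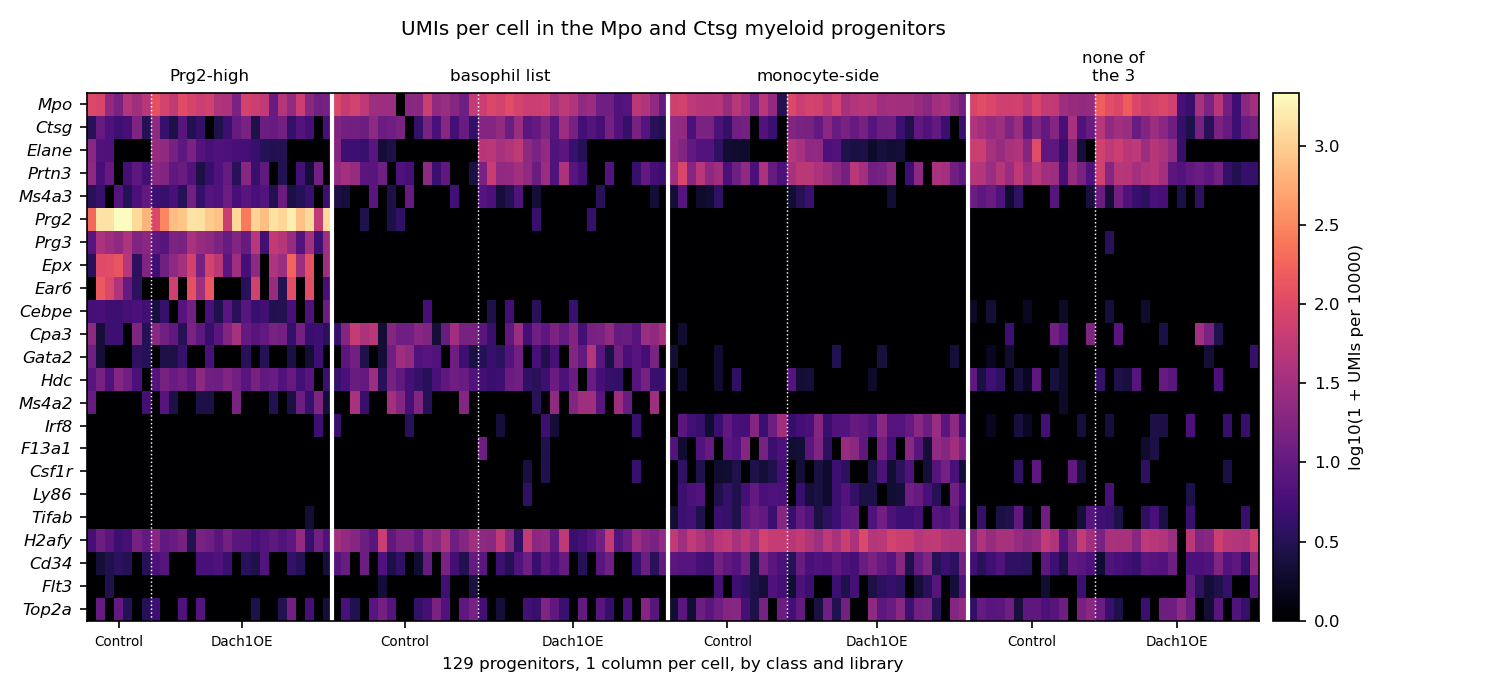
Each column is 1 of the 129 progenitors and each row a gene, coloured by its UMIs scaled to the depth of the cell, on a log10 scale, with the cells ordered by set and, within it, Control left and Dach1OE right of the dotted line. Prg2, Prg3 and Epx stand out in the first block and Ear6 in part of it, Cpa3 and Hdc run through the first and the second, Irf8, F13a1, Csf1r and Ly86 stand out in the third, and Mpo runs through all 4. Prg2, Cpa3, Hdc, Irf8, F13a1, Csf1r and Ly86 were used to define the sets and Mpo by the rule, so their places are a description.

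Prg2-high cells were set apart by their Prg2 level, more widely in Control than in Dach1OE. They held 84 to 1662 Prg2 UMIs in Control (median 750) and 14 to 1070 in Dach1OE (median 523.5), while no other progenitor had more than 1 and 3. The lowest Dach1OE cells of the set had 14, 38, 71 and 107 UMIs, and 2 Dach1OE cells of the set, with 14 and 359 Prg2 UMIs, had no Epx UMI. Epx, eosinophil peroxidase, which lies 59586 bases from Mpo on chromosome 11, had a median of 20 and 13 UMIs in them and 0 UMIs in every other progenitor. Cebpe, a factor of the late granulocyte stages, had a UMI in 7 of 7 and 16 of 20 of these cells, and in 5 and 6 of the others. Cd63, a membrane protein of granules, was at 2051 and 1926 CPM in Prg2-high cells against 482 and 677 CPM in cells with basophil genes, 373 and 227 CPM in cells with none of the lists and 58.4 and 19.2 CPM in monocyte-side cells. Ccr3, the eotaxin receptor of mature eosinophils, had no UMI. Ear1, Ear2 and Ear6 are related ribonuclease genes, and reads may be split between similar copies of the family, so their separate values are uncertain.

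Monocyte-side cells had a different profile. Irf8 had a UMI in 12 of 13 Control and 20 of 20 Dach1OE cells and F13a1, coagulation factor XIII A of monocytes, in 10 and 17. Both genes are part of the definition of the set, so their counts are a description. Tifab, which the definition did not use, had a UMI in 12 of 13 and 18 of 20 monocyte-side cells, in 0 of 16 and 0 of 21 cells with basophil genes, in 0 of 7 and 1 of 20 Prg2-high cells and in 8 of 14 and 8 of 18 cells with none of the lists. H2afy was at 4834 and 5221 CPM in monocyte-side cells, 3046 and 3606 CPM in cells with none of the lists, 2313 and 2415 CPM in cells with basophil genes and 763 and 963 CPM in Prg2-high cells, the same order in both libraries. Cells of the monocyte side were deeper (median 9505 and 7934.5 UMIs) than Prg2-high cells (4419 and 5613), and the part of depth in who met a condition was not tested. Elane was highest in the cells that met none of the conditions, at 2906 and 2806 CPM, against 551 and 773 CPM in monocyte-side and 421 and 659 CPM in Prg2-high cells. In cells with basophil genes Elane was at 230 CPM in Control (7 of 16 cells) and 1593 CPM in Dach1OE (12 of 21 cells).

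For each of these sets, the interval of the difference between the libraries includes 0. Prg2-high cells were 14.0% of Control progenitors (7 of 50, 5.82 to 26.7) and 25.3% of Dach1OE progenitors (20 of 79, 16.2 to 36.4), a difference of 11.3 points with an interval of -3.42 to 24.0. Cells with basophil genes only were 32.0% and 26.6% (difference -5.42, -21.6 to 10.1) and cells with monocyte-side genes only 26.0% and 25.3% (-0.684, -16.6 to 14.0). Cells with none of the lists were 28% and 22.8% (-5.22, -21.0 to 9.57). Within the Prg2-high cells, 57.1% and 95% met the basophil condition, a difference of 37.9 points (5.03 to 70.2) that rests on 7 Control cells. This share is not thinned, and the cells of this set had a median of 4419 UMIs in Control and 5613 in Dach1OE. Summed over them, the basophil list was at 2157 and 2377 CPM (log2 ratio 0.14, -0.22 to 0.51). Thinned to 2000 UMIs, 2 or more monocyte-side genes were seen in 23.1% and 23.5% of progenitors (difference 0.447, -15.5 to 14.7). Irf8 alone was seen in 23.0% and 27.4% of thinned progenitors, against 0.539% and 0.286% of basophil-like cells, and 17.4% and 6.94% of cells with a Cdh5 UMI. At the same depth the Cdh5 value lies far above that of basophil-like cells, so for Irf8 it is not read as the level of free RNA.

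**Figure D3:**
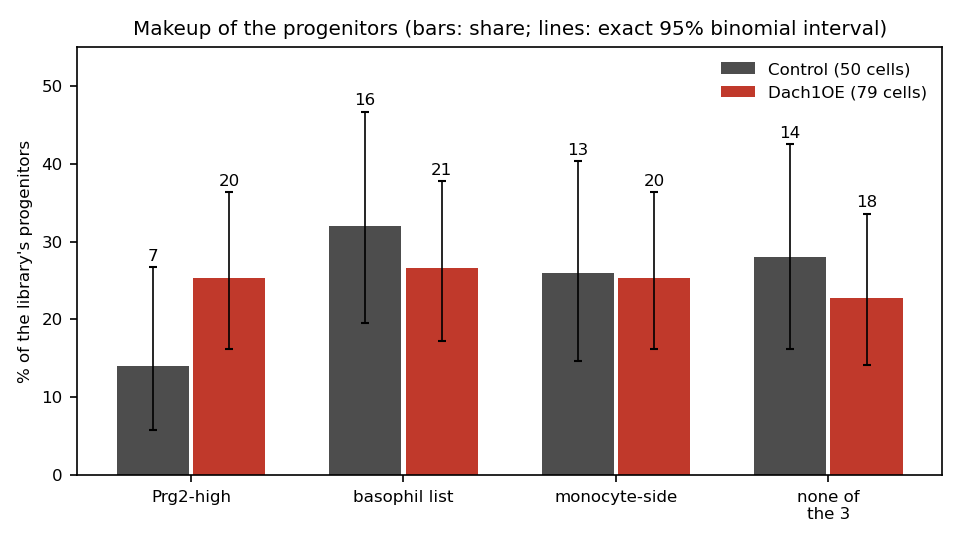
Share of each library's progenitors in the 4 sets (bars, percent) with exact 95% binomial intervals and the number of cells above each. The Prg2-high bar is 14.0% in Control and 25.3% in Dach1OE, and the intervals of the libraries overlap in every set.

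Few genes were past 2-fold between the libraries among those with enough UMIs to read a ratio. Of 3258 genes with at least 50 UMIs over both libraries, 1.5% were past 2-fold, 26 higher (0.798%) and 23 lower (0.706%) in Dach1OE, and the median log2 ratio was 0.01, with 1652 above and 1606 below 0. The count depends on the limits, since 356 of the 3258 were past 1.5-fold and 364 of 6437 genes with at least 20 UMIs were past 2-fold. Many of the lower genes came from single cells: in 11 of the 23, and in 2 of the 26 higher genes (Ibsp and Spp1), at least 50% of the higher library's UMIs were in 1 cell. The 11 were Mfge8, Col10a1 (280 and 76 UMIs), Col9a1, Ctgf, Igfbp5, S100a6, Cxcl12 (138 and 16), Fstl1, Mgp, Lpl and Prg4, of which Cxcl12, Col9a1 and Col10a1 are in the stromal and chondrocyte lists. One Control cell held 695 UMIs of the stromal and chondrocyte lists, 4.33% of its total, beside 83 Mpo and 28 Elane UMIs, and another held 275 Col10a1 and 249 Mgp UMIs beside 42 Mpo UMIs. The largest share was in a shallow Control cell, where 304 of 1422 UMIs (21.4%) were of these lists, beside 4 Mpo UMIs. Without the 4 Control and 6 Dach1OE cells with 50 or more such UMIs, 39 genes were past 2-fold, 25 higher and 14 lower. Whether these cells were doublets was not tested.

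**Figure D4:**
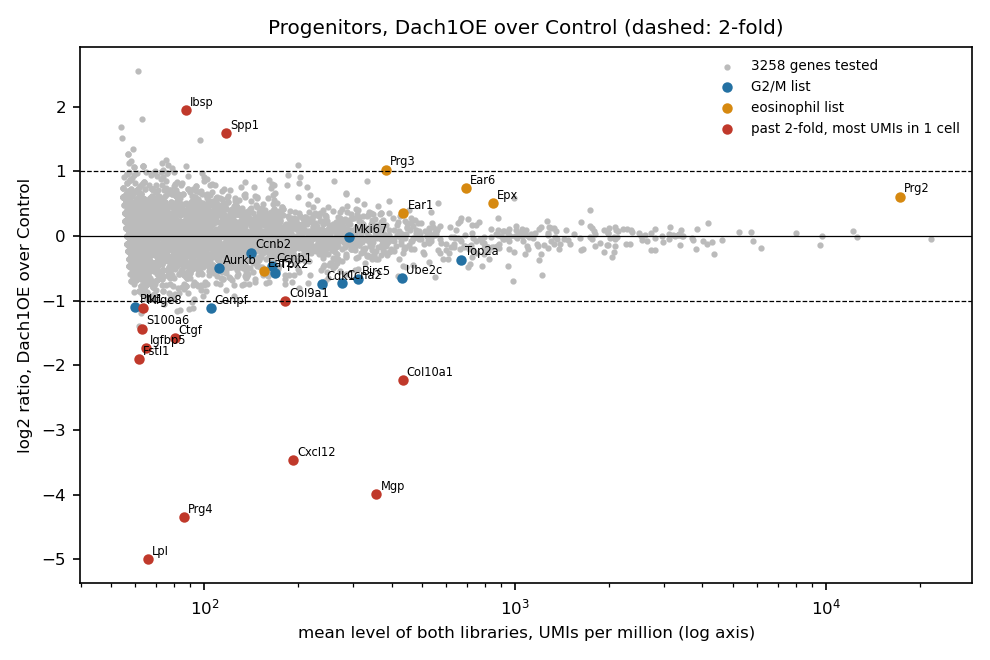
Log2 ratio of the summed level, Dach1OE over Control, against the mean level in CPM (log axis) for the 3258 genes tested (grey), with the G2/M list in blue, the eosinophil list in orange and genes past 2-fold whose UMIs lay mostly in 1 cell in red. The red genes make up the long lower tail from Col10a1 to Lpl, and Prg2 stands alone at the right.

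Among genes with the same direction in cells of either sex, the largest ratios were in sparse genes. Ampd2, AMP deaminase, had a UMI in 10 of 50 Control and 32 of 79 Dach1OE progenitors (11 and 49 UMIs, log2 ratio 1.81, 0.84 to 2.90). Rxrb, a retinoid X receptor, had one in 7 and 32 cells (1.69, 0.66 to 2.85) and Sema4d, a semaphorin of leukocytes, in 9 and 27 cells (1.51, 0.52 to 2.62). Ibsp, bone sialoprotein, led the ratios at 1.95, but 61 of its 69 Dach1OE UMIs were in 1 cell. Igfbp7, Aifm1, Zfp292, Heg1, Rnase12 and Ankrd44 followed, at 1.48 to 1.16. On the lower side stood Igfbp5 (-1.73) and S100a6 (-1.43), with 22 of 39 and 28 of 36 Control UMIs in 1 cell, and Tpst2, a tyrosylprotein sulfotransferase, with a UMI in 22 and 15 cells (-1.39, -2.32 to -0.52). Supt4a, Vamp5, Hsph1, Anapc13, Fam168a, Cenpf and Nuf2 lay between -1.19 and -1.11. In the other kept cells the log2 ratio was 0.09 for Ampd2, -0.13 for Rxrb and -0.11 for Tpst2.

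None of the 12 tested azurophil granule genes was past 2-fold, a count near the 1.5% of all genes. Their sum was 13802 and 13817 CPM, but most of it came from the 4 genes the cells were selected on. Without these, the list summed to 3750 and 4190 CPM, and 7 of the 8 tested genes were above 0 with a median of 0.14, against 0.01 over all genes. Srgn, the proteoglycan core of the granule, was at 2127 and 2300 CPM, and Prss57, a protease of the same granules, had a log2 ratio of 0.45 (-0.12 to 1.03). Of the 4 tested NADPH oxidase genes none was past 2-fold (median 0.07), but Cybb, the catalytic subunit, went from 1 to 22 UMIs, seen in 1 of 50 and 14 of 79 cells, with 13 of the 22 in Prg2-high cells. Itgam (CD11b), one of the proteins used to deplete mature cells, had 1 and 11 UMIs in 1 and 9 cells. Both had too few UMIs for the filter and are named after their values were seen. The 12 tested genes of endoplasmic reticulum folding, which serve the making of granule proteins, had none past 2-fold and a median of -0.05.

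The 2 cell cycle lists differed in direction. All 12 tested G2/M genes had a log2 ratio below 0, with a median of -0.61, against 1606 of 3258 genes below 0 and a median of 0.01 over all. Among progenitors with a Ptprc UMI the median was -0.25. Past 2-fold lower were 2 of the 12, against 0.706% of all genes: Cenpf, a kinetochore protein (-1.11, -1.78 to -0.47), and Plk1, a mitotic kinase (-1.10, -2.0 to -0.24). Top2a, the topoisomerase of dividing cells, was at 752 and 584 CPM (-0.36, -0.60 to -0.13), Ube2c, which drives mitotic exit, at 529 and 337 CPM (-0.65, -0.95 to -0.35), and Mki67 at 294 and 291 CPM (-0.02, -0.38 to 0.35). The list summed to 3543 and 2463 CPM (-0.52, -0.64 to -0.41). Of the 10 tested S phase genes, 8 were above 0 with a median of 0.14 and none past 2-fold, and the list summed to 1396 and 1693 CPM (0.28, 0.12 to 0.44). The S phase sum was furthest apart in Prg2-high cells, at 552 and 1432 CPM (1.37, 0.71 to 2.10, from 21 and 165 UMIs), and in monocyte-side cells the ratio was 0.07 (-0.22 to 0.37). By sex, the S phase median was 0.22 in cells with Xist and 0.64 in cells with Y-linked UMIs. Mcm2, Mcm3 and Mcm4, parts of the replication helicase, had ratios of 0.63, 0.59 and 0.80, with intervals above 0.

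The share of cells with G2/M genes was lower as well, that of cells with S phase genes was not. Thinned to 2000 UMIs, 2 or more G2/M genes were seen in 70.8% of Control and 48.9% of Dach1OE progenitors (difference -21.9 points, -37.3 to -4.06), and not thinned in 80.0% and 63.3%. For S phase genes the thinned shares were 60.4% and 66.3% (difference 5.81, -11.0 to 22.9). By set, the G2/M sum was lower in Dach1OE in Prg2-high cells (2288 and 989 CPM), in cells with basophil genes (3168 and 1790 CPM) and in cells with none of the lists (3736 and 2525 CPM), and level in monocyte-side cells (3999 and 4007 CPM, log2 ratio 0.00, -0.17 to 0.18). Without the Prg2-high cells the summed ratio was -0.34 (-0.46 to -0.22), and Mki67 was then above 0. Split by sex of the cell, the median of the list was -0.32 in cells with Xist and -0.11 in cells with Y-linked UMIs. The thinned shares differed by -27.0 points in the former (-46.7 to -3.29) and by -1.41 points in the latter (-32.3 to 32.4, 9 Control cells). These intervals overlap, and the difference between the sexes was not tested. Each sex within a library is 1 mouse if the pairs were 1 female and 1 male, so sex and mouse cannot be told apart.

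**Figure D5:**
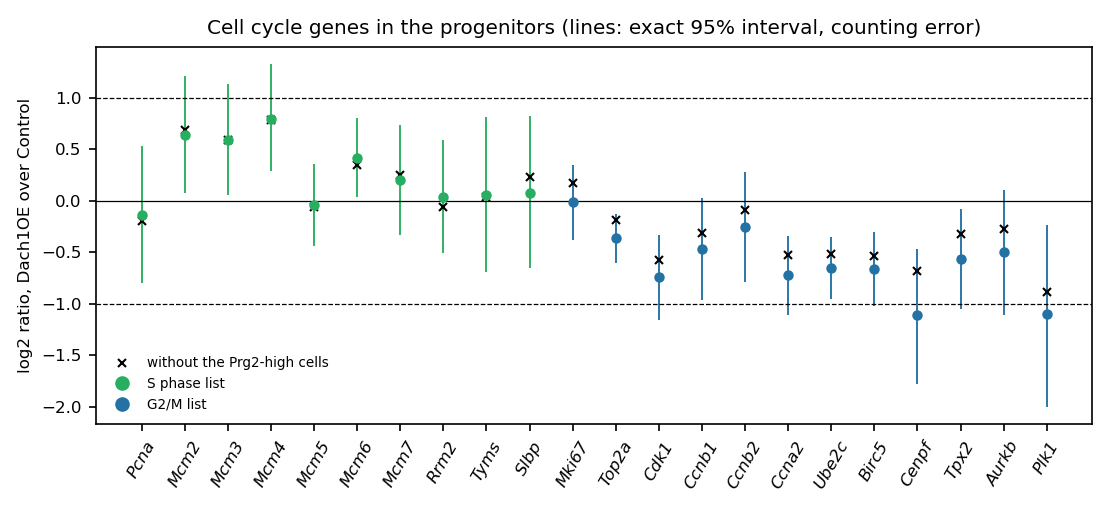
Log2 ratio of the summed level, Dach1OE over Control, for the 10 S phase (green) and 12 G2/M genes (blue) tested, with exact 95% intervals, and without the Prg2-high cells (crosses). Every G2/M point lies below 0, and without the Prg2-high cells all but Mki67 still do.

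Eosinophil genes had the highest summed ratio of the blood lineage lists with several tested genes. The list summed to 15730 and 23837 CPM, and 5 of 6 tested genes were above 0 with a median of 0.56. Over all genes, 1652 of 3258 were above 0 with a median of 0.01. The eosinophil median was 0.20 with 3 or more rule genes and -0.23 with 5 or more UMIs per rule gene. Past 2-fold higher was 1 of the 6, against 0.798% of all genes: Prg3, a homologue of Prg2 that lies 4582 bases from it on chromosome 2 (253 and 515 CPM, 1.03, 0.69 to 1.38). Within Prg2-high cells the order was the other way, 161740 and 103060 CPM (-0.65, -0.69 to -0.61), while such cells numbered 7 and 20. Prg2, which defined these cells, made up 140753 and 90133 CPM of that sum, so the order is a description. The Prg2 UMIs per cell overlapped, at 84 to 1662 in Control and 14 to 1070 in Dach1OE. In cells with Xist the median was -0.17, and in cells with Y-linked UMIs, of which 1 of 9 Control cells was Prg2-high, it was 2.56. The other Ptprc-positive cells were also higher in Dach1OE for Prg2 (1492 and 4215 CPM), Epx (76.8 and 221 CPM) and Ear6 (22.6 and 119 CPM), but not for Ear1 (74.5 and 62.3 CPM). In basophil-like cells Prg2 was at 2260 and 2421 CPM and Epx at 111 and 109 CPM.

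None of the 8 tested monocyte genes was past 2-fold, again near the 1.5% of all genes. Their median log2 ratio was 0.23, with 7 above 0, against a median of 0.01 and 1652 of 3258 above 0 over all genes. The monocyte median was 0.04 with 3 or more rule genes and 0.71 with 5 or more UMIs per rule gene. F13a1 was at 187 and 337 CPM (0.85, 0.45 to 1.27) and Ms4a6c, a membrane protein of monocytes, at 238 and 429 CPM (0.85, 0.49 to 1.22). The 6 monocyte-side genes summed to 729 and 991 CPM, and within monocyte-side cells to 2070 and 2831 CPM (0.45, 0.22 to 0.68). These cells were chosen by the same genes at a fixed number of UMIs, so the ratio within them is a description. Their median depth was 9505 UMIs in Control and 7934.5 in Dach1OE, and its part in the ratio was not tested. Over all progenitors, the ratio was 0.09 for Ly86 (-0.49 to 0.68) and -0.23 for Ccr2 (-0.84 to 0.38). Cytokine receptors had a median of 0.33 over 7 genes, none past 2-fold, with Csf2rb, the shared beta chain of the IL-3, IL-5 and GM-CSF receptors, at 123 and 205 CPM (0.74, 0.23 to 1.26). Neutrophil regulators (5 tested, median 0.06), stem and early progenitor genes (6, 0.02), adhesion and retention genes (6, -0.01) and basophil genes (4, 0.15) had none past 2-fold. Cebpe, at 61.4 and 116 CPM (0.92, 0.21 to 1.67), was an exception in size, and its UMIs were mostly in Prg2-high cells. The targets of the depletion (3 tested, median 0.04, none past 2-fold) were low or patchy: Ptprc had 35 and 46 UMIs, in 25 of 50 and 35 of 79 progenitors, and Kit (CD117) 37 and 44 UMIs, in 21 and 28.

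Dach1, the gene of the transgene, did not differ between the progenitors of the libraries beyond counting error. It had 26 UMIs in Control, in 19 of 50 cells, and 24 in Dach1OE, in 16 of 79 cells, that is 66.5 and 48.1 CPM (log2 ratio -0.47, -1.33 to 0.39). The ratio was 0.48 (-0.70 to 1.72) among progenitors with a Ptprc UMI and -1.23 (-2.48 to -0.08) with 5 or more UMIs per rule gene, so its direction depends on who is counted. It was -0.21 in cells with Xist and -0.14 in cells with Y-linked UMIs. In basophil-like cells Dach1 was at 34.3 and 31.7 CPM and in the other Ptprc-positive cells at 33.2 and 39.0 CPM. In cells with a Cdh5 UMI, which hold the cells the Cre acts in, it was at 5.35 and 134 CPM. Thinned, it was seen in 14.0% and 8.89% of progenitors, against 6.92% and 6.86% of basophil-like cells and 0.980% and 23.4% of cells with a Cdh5 UMI. Per set, Dach1 had 5 and 12 UMIs in Prg2-high cells, 9 and 10 in cells with basophil genes, 6 and 0 in monocyte-side cells and 6 and 2 in the rest. The counts do not tell transgene from endogenous Dach1 RNA.

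Markers of other cells were checked as whole lists. T and NK cell genes had 0 UMIs for 6 of 6 genes. Of the B lineage list 3 of 8 genes, of the macrophage list 4 of 7 (C1qa, C1qb and C1qc among them), of the dendritic list 4 of 6 and of the osteoclast list 2 of 5 had none, and the sums were at most 46.0 CPM. Smooth muscle genes summed to 12.8 and 90.3 CPM, erythroid genes to 452 and 451 CPM, megakaryocyte genes to 118 and 136 CPM and endothelial genes to 164 and 235 CPM, the last mainly Pecam1, which myeloid cells also express. Stromal and osteoblast genes summed to 1874 and 2148 CPM and chondrocyte genes to 2572 and 1346 CPM, although Pdgfra and Pdgfrb are at 0 by the rule. Of the 4 tested genes of either list, Ibsp was past 2-fold higher and Cxcl12, Col9a1 and Col10a1 lower, against 0.798% higher and 0.706% lower of all genes. The count of genes past 2-fold without the cells richest in these UMIs is given above, and the median of the G2/M list described above was then -0.82. Hypoxia and glycolysis genes (8 tested, median -0.15) and the 1 interferon gene tested, Ifitm3 (-0.10), had none past 2-fold. Of 6 tested genes of stress during cell isolation, 1 was past 2-fold higher, against 0.798% of all genes. It was Hspa1a (1.10, 0.32 to 1.94), although it and Hspa1b are near-identical copies, and the median of the list was 0.21.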

How the data were processed

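Single-cell RNA sequencing on the BD Rhapsody system gave 1 table per library (28720 Control and 32028 Dach1OE cells). The deposited values are UMI counts per cell and gene after the pipeline's correction of identifier errors, not normalized. The file headers name pipeline version 1.11 and GENCODE M19, the methods another version, and intronic reads were counted by the authors on GRCm38. Whether strand was used is not stated in the sources used here.

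The limits on cells of the study's methods were used (500 to 6000 genes, mitochondrial UMIs below 25%), and the membership rule was applied to these counts. No doublet caller was run. UMIs were summed per library (CPM with exact Poisson intervals), and the log2 ratio has an exact conditional interval. Shares have exact Clopper-Pearson intervals, differences of shares Newcombe intervals, all at 95%. UMIs are molecules after amplification, so these cover counting error only. Ratios were read for genes with 50 or more UMIs over both libraries, and past 2-fold counts as called. Thinned shares are expected shares at 2000 UMIs per cell (for lists, the mean of 100 draws), with shallower cells left out. The calculations were made in Python 3.11.15 with scipy 1.17.1 and tested on simulated data, and TMM factors come from edgeR 4.0.16.

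Named genes were those of 34 lists, the 10 highest and 10 lowest ratios with the same sign in cells of either sex, and the 15 genes highest against other Ptprc-positive cells. The members and lists were chosen with earlier results of these data known. Basophil-like cells are kept cells outside the progenitors with 2 or more of the 5 basophil genes at 2 or more UMIs each. They also have no Cdh5, Pdgfra or Pdgfrb UMI. Alternatives varied the rule, filters, scaling, sex and thresholds. Promoter windows are from RefSeq, positions from GENCODE M21 on the same build.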

Additional observations from a re-analysis of the deposited data

Results flagged for a closer look

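A few values of the progenitors had opposite signs in cells of either sex. The median log2 ratio of the eosinophil list, Dach1OE over Control, was -0.17 in cells with Xist and 2.56 in cells with Y-linked UMIs, of which Control had 9. The median of the azurophil granule list was 0.12 and -0.28 in the same cells. The thinned share of progenitors with an Irf8 UMI differed by -2.66 points in cells with Xist and by 10.9 points in cells with Y-linked UMIs. For each of these the difference between the sexes itself was not tested, and the interval of the Irf8 difference includes 0 in both (-23.6 to 18.1 and -24.8 to 36.2 points). The list medians have no interval of their own, so their signs are not known to lie beyond counting error. Outside the progenitors, cells with 2 or more late granule genes at 2 or more UMIs, that is cells further along the neutrophil line, numbered 5 in Dach1OE and 0 in Control.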

How the results depend on the processing

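No paired analysis was possible because there is 1 library per group. Of 216 alternative values over 14 results, 200 stayed within the interval of the reported value (for the count of genes, within 1.5 times) and 14 left it without reversing a value whose interval excludes 0. For medians of gene lists, the interval used was the typical width of a single gene's counting interval, set around the median. It is not an interval of the list median. The sign changed in 20, of which 18 belong to results whose interval includes 0, such as the neutrophil-side and monocyte-side shares. The other 2 reversed a list median whose interval, so built, does not include 0. The median of the eosinophil list, 0.56, reversed to -0.23 with 5 or more UMIs per rule gene and to -0.17 in cells with Xist, and was 0.20 with 3 or more rule genes, 0.26 with equal weight of cells and 2.56 in cells with Y-linked UMIs. The monocyte median, 0.23, was 0.71 with 5 or more UMIs per rule gene and 0.04 with 3 or more rule genes. Dach1, at -0.47, was 0.48 (-0.70 to 1.72) among progenitors with a Ptprc UMI and -1.23 (-2.48 to -0.08) with 5 or more UMIs per rule gene. The G2/M median, -0.61, was -0.25 with a Ptprc UMI. The difference in share, 0.0805 points, had an interval including 0 with raw UMIs (0.0731), with 3 or more rule genes (0.0577), with 5 or more UMIs per rule gene (0.0376), with a Ptprc UMI (0.0249) and in cells with Xist (0.0519). In cells with Y-linked UMIs the share of progenitors differed by 0.212 points, the G2/M median was -0.11, the azurophil median -0.28 and the share with G2/M genes differed by -1.41 points. The count of genes past the fold, 49, was 26 with a Ptprc UMI, 30 in cells with Xist, 364 (of 6437 genes) with at least 20 UMIs, 3 with at least 200 and 356 at 1.5-fold. TMM scaling subtracted a log2 shift of -0.0011 from all ratios and left 49. For the other values the cause of a shift was not tested. Depth limits sparse genes: at 50 UMIs over both libraries, an interval of a log2 ratio spans more than 1 unit.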
